A study of Homo sapiens with 6 samples.

Results

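The genes described here encode the enzymes that place, remove or maintain methyl groups on histones and on DNA, and the enzymes that remove acetyl groups from histones. They were chosen by symbol alone, as the KMT2, KMT5, SETD, SETDB and EHMT methyltransferases, the core of Polycomb repressive complex 2 (PRC2), the KDM demethylases, the HDAC and SIRT deacetylases, the DNMT enzymes with UHRF1, and the TET dioxygenases. KDM5D was left out. The choice gave 69 of the 36459 gene symbols in the count table. Of these, 67 passed the expression filter and were tested, and KDM4E and KDM4F had a count of 0 in every library.

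RNA was measured in PC9 cells, an established human non-small cell lung cancer line that depends on mutant EGFR, and in persister cells (PS), which are the PC9 cells that remain when the culture has been kept for 6 days with erlotinib at 15 µM. Erlotinib blocks the EGFR kinase. The series has 3 parental libraries, from 3 independent cultures grown without the drug, and 3 PS libraries, which were pooled from 9 cultures. Both groups are the same cell line and differ in erlotinib and in the cells that survive it, so the effect of the drug and the selection of surviving cells cannot be told apart. In RNA from whole cultures, a smaller number of cells with a transcript and less of that transcript per cell cannot be told apart either.

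Histone methyltransferases take the methyl group from S-adenosylmethionine. The marks they leave on lysines of histones H3 and H4 have different meanings: methylation of H3K4 is found at active promoters and enhancers, H3K36 methylation in transcribed gene bodies, and H3K9 and H3K27 methylation in silent chromatin. KDM1 demethylases use flavin and the other KDM enzymes use iron, oxygen and 2-oxoglutarate, as TET enzymes do when they oxidise 5-methylcytosine. HDACs use zinc and sirtuins use NAD to take acetyl groups off lysines. Chromatin enzymes of this kind are of interest in persister cells because the drug-tolerant state can be left again when the drug is withdrawn, and KDM5A in particular has been studied in drug tolerance of this cell line.

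The genes of this set that stood out most were TET3, KDM6A, SETD7, KDM7A and KDM1B, which were higher in PS, and KDM1A and HDAC1, which were lower. Promoters of the SETD7 and TET3 genes, the called rises with the smallest p-values, and of KDM1A and HDAC1, the called falls with the smallest p-values, are shown here so that their sequences can be set beside the changes given further on. Each is the 250 bases before the gene's start in RefSeq (GRCh38.p14), read 5′ to 3′ on the gene's strand, with every CG dinucleotide, the site of DNA methylation, in capitals. They were picked after the values had been seen. SETD7 lies at chr4:139556220-139556469 on the minus strand and has 16 CG sites, TET3 at chr2:73984660-73984909 on the plus strand with 37, KDM1A at chr1:23019218-23019467 on the plus strand with 23, and HDAC1 at chr1:32291833-32292082 on the plus strand with 21. Gene coordinates given further on are from GENCODE, whose gene starts can differ from those of RefSeq. The SETD7 window lies inside the GENCODE span of the gene, 139495941 to 139606699. The KDM1A window runs past the GENCODE start at 23019443.
SETD7: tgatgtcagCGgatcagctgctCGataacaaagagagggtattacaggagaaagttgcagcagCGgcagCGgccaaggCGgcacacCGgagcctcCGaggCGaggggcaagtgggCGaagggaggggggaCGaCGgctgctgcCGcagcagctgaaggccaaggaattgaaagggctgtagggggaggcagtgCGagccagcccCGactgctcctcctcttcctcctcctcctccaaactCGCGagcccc
TET3: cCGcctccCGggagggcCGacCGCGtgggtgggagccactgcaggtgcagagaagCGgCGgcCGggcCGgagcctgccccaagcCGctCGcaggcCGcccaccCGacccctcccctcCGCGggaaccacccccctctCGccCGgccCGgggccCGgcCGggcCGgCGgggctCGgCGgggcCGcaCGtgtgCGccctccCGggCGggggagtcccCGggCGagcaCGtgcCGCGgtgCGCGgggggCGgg
KDM1A: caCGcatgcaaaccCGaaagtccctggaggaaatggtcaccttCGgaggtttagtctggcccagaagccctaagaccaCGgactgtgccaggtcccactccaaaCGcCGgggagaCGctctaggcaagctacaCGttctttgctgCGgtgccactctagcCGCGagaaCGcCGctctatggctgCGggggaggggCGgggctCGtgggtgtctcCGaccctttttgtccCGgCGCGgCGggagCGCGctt
HDAC1: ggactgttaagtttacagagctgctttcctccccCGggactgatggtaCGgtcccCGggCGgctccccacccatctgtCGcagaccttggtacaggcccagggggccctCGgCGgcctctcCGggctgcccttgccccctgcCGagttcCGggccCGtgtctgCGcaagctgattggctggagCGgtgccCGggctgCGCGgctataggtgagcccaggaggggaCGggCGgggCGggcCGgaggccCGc

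The promoter of TET3 holds the most CG sites of the 4 and that of SETD7 the fewest. RefSeq promoters were matched for 65 of the members, with a median of 23 CG sites in 250 bases, and for 10814 of the tested genes, with a median of 21. A CCAAT box, searched as CCAAT on both strands, was in 24 of the 65 promoters, against 34.8% of the promoters of tested genes. It was in 8 of the 19 matched members called higher, HDAC9 among them. It was in 12 of the 22 called lower, HDAC1, HDAC6 and HDAC10 among them. Of the 10 matched HDAC promoters 4 held it, or 40%. In the HDAC1 promoter it stands on the reverse strand, within the letters gattggct. E2F sites, searched as TTTGGCGC or TTTCCCGC on both strands, were in the promoters of 4 members, KDM1B, SIRT6, SUZ12 and UHRF1, against 3.08% of tested genes. The CRE letters TGACGTCA were in 1 member's promoter, that of SIRT4, against 2.67% of tested genes. No member's promoter held TATAAA or the FOXO letters GTAAACA, which 5.39% and 1.93% of tested promoters held. None of these strings of letters contains another. A match is a description of the sequence in this window.

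The total of gene counts was between 29.5 and 34.9 M per library, and the 69 genes together took between 0.4017% and 0.416% of it in each library. Levels are given as CPM, the gene's count divided by the library's total in M, after TMM normalization, with the SD over n = 3 libraries per group. A gene was called higher or lower in PS when edgeR's quasi-likelihood test over all 14626 tested genes gave a Benjamini-Hochberg adjusted p under 0.01, and all adjusted p-values of genes below are from that test. An exact permutation test of 3 libraries against 3 cannot give a p below 0.1 for a single gene. Of the 6 epithelial markers all were expressed, with a summed level of 7519 to 8051 CPM in PC9 and 5936 to 6298 CPM in PS. CDH1 (log2 fold change 0.60) and KRT7 (0.46) were called higher and the other 4 lower. Of 10 markers of blood, endothelial and stromal cells CD3E was at 0, and the sum was 93.6 to 95.7 CPM in PC9 and 50.4 to 57.2 CPM in PS. Most of the PC9 sum was CD68, which fell from 74.8 to 21.1 CPM, while stromal COL1A1 rose from 10.2 to 28.3 CPM. Among the 6 of these markers that were tested, COL1A1 and PDGFRB were called higher, and CD68 and PECAM1 lower. Of 20 proliferation markers 8 were called higher and 8 lower, and their sum was 3064 to 3092 CPM in PC9 and 3219 to 3235 CPM in PS.

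Of the 67 tested members, 20 were called higher in PS, 23 lower and 24 neither. Over all tested genes 28.7% were called higher, 28.1% lower and 56.8% either way, against 29.9%, 34.3% and 64.2% of the members, so changes of this kind were widespread and the share among the members was close to that of the background. The PC9 and PS libraries did not overlap for 54 members, or 80.6%, against 71.3% of all tested genes. Most changes were small. The median absolute log2 fold change was 0.26 for the members and 0.33 for all tested genes, and 6 members (8.96%) were called with a fold change above 1.5, against 23.9% of tested genes. Those 6 were TET3, KDM6A, SETD7, KDM7A and KDM1B, all higher, and KDM1A, lower. Their calls were kept under every alternative setting tried. Scaling by library size alone gave 14 members higher and 26 lower, and upper-quartile scaling gave 15 and 26. Without PC9 replicate 3 the number called higher was 13 and 29 of the 43 calls were kept. The calls of DNMT3A, EED, HDAC5, KDM3A, KDM3B, KDM4D, KDM5C, KMT2B, KMT5A, KMT5C, SETD1A, SETD1B, SETD6 and SUZ12 were those lost, and without another single library the calls lost were all among these.

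**Figure D1:**
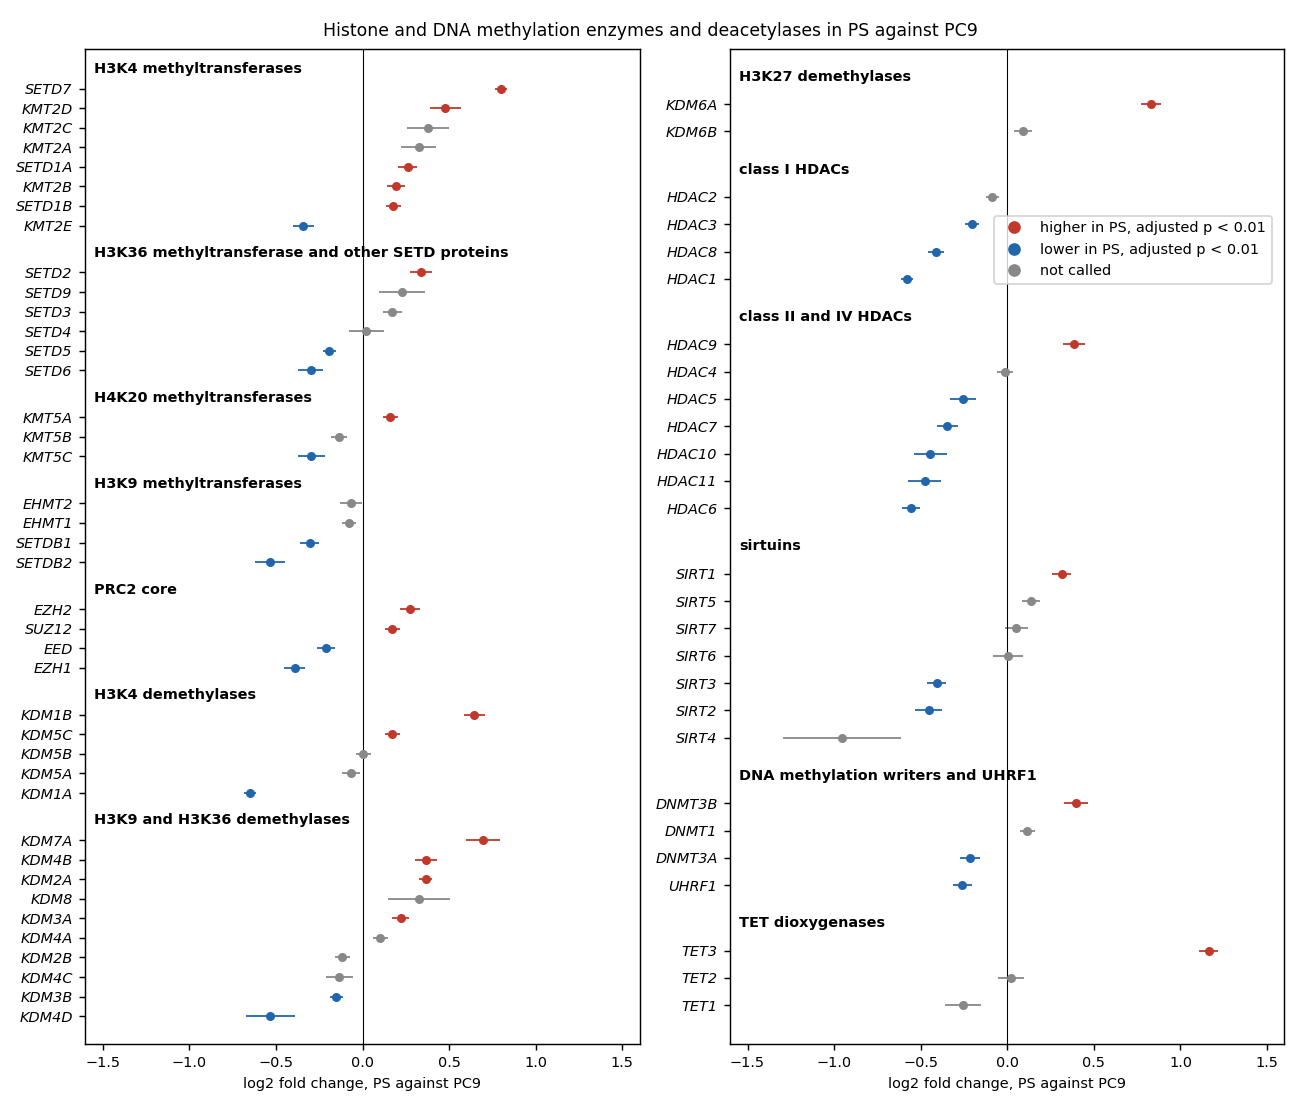
Log2 fold change of PS against PC9 for the 67 tested members, grouped by role, with points coloured by call and bars of 1 standard error. TET3 lies farthest to the right at 1.16, HDACs lie mostly to the left of 0, and SIRT4, the leftmost point at -0.95, has a wide error and was not called.

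Among the 8 genes grouped as H3K4 methyltransferases, 5 were called higher, 1 lower and 2 neither. These are 62.5% higher and 12.5% lower, against 28.7% and 28.1% of all tested genes. SETD7, which places a single methyl group on H3K4 and also methylates other proteins, rose most. Its level was 143, 139 and 141 CPM in PC9 replicates 1, 2 and 3 and 249, 245 and 243 CPM in the PS replicates. The groups lie far apart, with libraries of a group within a few CPM of each other. The log2 fold change was 0.80 (SE 0.0340, adjusted p = 7.28e-09), a 1.74-fold rise. SETD7 lies on chromosome 4 of GRCh38, 139495941 to 139606699 in GENCODE, and the RefSeq promoter window printed above lies inside this span.

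The large KMT2 proteins and the SETD1 proteins are the catalytic subunits of COMPASS complexes. KMT2D, which methylates H3K4 at enhancers, rose from 137 ± 18.5 to 191 ± 16.3 CPM (log2 fold change 0.48, SE 0.0897). Smaller rises were called for SETD1A (0.26 on the log2 scale), KMT2B (0.19) and SETD1B (0.18). KMT2A and KMT2C had log2 fold changes of 0.32 and 0.38 but missed the limit, with adjusted p of 0.0142 and 0.0156. They were called higher in 4 and 5 of 19 alternative settings. KMT2C turned to -0.22 when gene counts were summed from transcripts, and 50.8% of its count was on transcripts matched to the annotation. In both genes, PC9 replicate 2 was the lowest library: KMT2A measured 149, 112 and 148 CPM in PC9 and 185, 154 and 172 CPM in PS. KMT2E, a relative with a PHD finger that binds methylated H3K4 and with no well-established activity of its own, went the other way. It measured 97.1, 81.6 and 92.8 CPM in PC9 and 72.2, 70.1 and 72.0 CPM in PS, with no overlap (log2 fold change -0.34, SE 0.0594, adjusted p = 0.000405).

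These transcripts are among the longest of the set, and in these libraries fold changes moved with transcript length. Over all tested genes with a length, the median log2 fold change was -0.172 for 1215 genes under 1 kb and 0.326 for 369 genes over 8 kb. The 9 members over 8 kb had a median of 0.324, and the 22 members of 4 to 8 kb one of 0.138, the same as the 2636 genes of that class. Libraries of the same group also differed with length. For all genes over 8 kb the median log2 deviation from the group mean was 0.0482, -0.0973 and 0.0427 in PC9 replicates 1, 2 and 3. In PS replicates 1, 2 and 3 it was 0.0626, -0.0558 and 0.00175. The mean transcript length, a harmonic mean weighted by counts, was 18 kb for KMT2D, 14.2 kb for KMT2A and 11.3 kb for KMT2C. The trend removed next was fitted on a different length, the arithmetic mean weighted by counts. When the trend with length was taken out of the fit, an alternative chosen after seeing the data, the log2 fold change was 0.08 for KMT2D, -0.0044 for KMT2A, 0.0050 for KMT2B and -0.0074 for SETD1B, and none of the KMT2 and SETD1 rises was called. KMT2E was called lower there too, at -0.47, and SETD7 higher, at 0.66. In all, 13 members were then called higher and 24 lower, and 32 of the 43 calls were kept, while SETD3 gained a call as higher and HDAC4, KDM2B, KDM5A and TET1 as lower. The part of length in these rises was not tested further.

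**Figure D2:**
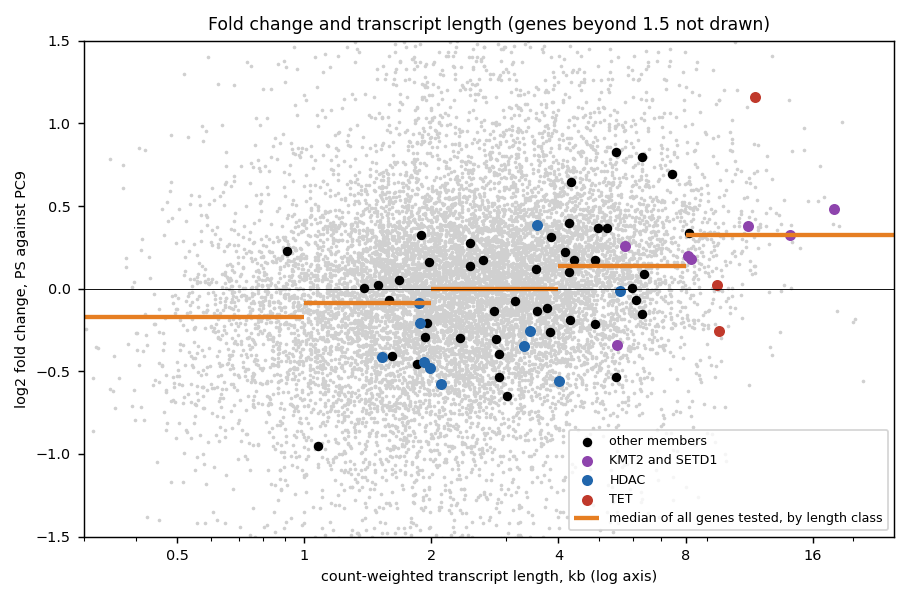
Log2 fold change of PS against PC9 (vertical axis) against transcript length in kb (log axis) for all tested genes in grey and the members in colour, with the median of all genes in each length class as an orange line. The line goes from -0.172 under 1 kb to 0.326 over 8 kb, KMT2A and KMT2C lie near it, TET3 lies far above it, and the HDAC genes lie mostly at 1 to 4 kb and below it.

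SETD2 trimethylates H3K36 along transcribed genes. It measured 129.7, 106 and 121 CPM in PC9 and 155, 151 and 145 CPM in PS, a rise of 0.34 on the log2 scale (SE 0.0651, adjusted p = 0.000834), which fell to 0.15 and was not called with the length trend removed. Of the other SETD genes, SETD6, which methylates the RELA subunit of NF-κB, was called lower. Its libraries held 9.68, 10.3 and 10.3 CPM in PC9 and 8.46, 8.04 and 8.14 CPM in PS (log2 fold change -0.30, adjusted p = 0.00371). SETD5 was lower as well (-0.19), and SETD3, a histidine methyltransferase of actin, SETD4 and SETD9 were not called, at 0.17, 0.02 and 0.23.

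KMT5A, which adds the first methyl group to H4K20 and is regulated through the cell cycle, rose slightly. It measured 43.1, 41.3 and 41.9 CPM in PC9 and 47.8, 46.7 and 46.8 CPM in PS, a log2 fold change of 0.16 (SE 0.0420, adjusted p = 0.00558). KMT5C, which carries H4K20 methylation further, fell. It measured 20.7, 25.8 and 23.9 CPM in PC9 and 19.3, 18.4 and 19.6 CPM in PS (-0.30, SE 0.0780, adjusted p = 0.00603). The lowest PC9 library and the highest PS library of KMT5C are close, at 20.7 and 19.6 CPM, and the call was lost with the length trend removed, with the GC trend removed, and without PC9 replicate 2, PC9 replicate 3 or any one PS replicate. KMT5B was not called (-0.14, adjusted p = 0.0224).

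Of the 4 H3K9 methyltransferases among the members, none was called higher and 2 were lower, against 28.7% and 28.1% of all tested genes. SETDB2 measured 11.2, 12.2 and 10.8 CPM in PC9 and 8.60, 7.34 and 7.73 CPM in PS, a log2 fold change of -0.53 (SE 0.0851, adjusted p = 0.000215). SETDB1, which trimethylates H3K9 at retroelements, fell from 41.2 ± 2.44 to 33.3 ± 1.36 CPM (-0.31, adjusted p = 0.000579). The H3K9 dimethylating pair EHMT1 and EHMT2 had log2 fold changes of -0.08 and -0.07, which were not called.

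All 4 genes of the PRC2 core were called, and in both directions, where 56.8% of all tested genes were called. PRC2 methylates H3K27 through either EZH2, the form of dividing cells, or EZH1, while EED and SUZ12 are needed for its activity. EZH2 measured 53.4, 46.4 and 48.1 CPM in PC9 and 60.4, 60.7 and 57.9 CPM in PS. It rose by 0.27 on the log2 scale (SE 0.0555, adjusted p = 0.00114). EZH1 measured 15.9, 16.6 and 17.0 CPM in PC9 and 12.8, 12 and 12.9 CPM in PS, and changed by -0.39 (SE 0.0620, adjusted p = 0.000202). For both genes every PS library lies outside the range of the PC9 libraries. SUZ12 rose from 70.4 ± 1.77 to 79.3 ± 2.85 CPM (0.17), and EED fell from 27 ± 0.697 to 23.3 ± 0.769 CPM (-0.21). Both of these small changes lost their call with the length trend removed, and those of EZH1 and EZH2 did not. The proliferation markers were mixed. Of 20, 8 were called higher, MKI67 and PLK1 among them, and 8 lower, which were MCM2 to MCM7, PCNA and TYMS. Their sum was slightly higher in PS, in the values given above. The part of proliferation in the levels of EZH2 and KMT5A was not tested.

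The flavin-dependent demethylases of H3K4 moved in opposite directions. KDM1A, the LSD1 protein of the CoREST complex, lies on chromosome 1, 23019443 to 23083689. It measured 213, 206 and 210.4 CPM in PC9 and 133, 133 and 135 CPM in PS. All PS libraries lie well below the PC9 libraries, with an SD of 1.06 CPM around a mean of 134 CPM. The log2 fold change was -0.65 (SE 0.0344, adjusted p = 3.98e-08). KDM1B, its relative in oocytes and other cells, lies on chromosome 6, 18155329 to 18223854. It measured 39.9, 34.6 and 40.5 CPM in PC9 and 62.5, 59.8 and 57.6 CPM in PS, a rise of 0.65 (SE 0.0623, adjusted p = 4.45e-06). Per kb of transcript KDM1A was still the more abundant of the pair in PS, at 44.4 ± 0.533 against 13.8 ± 0.445 CPM per kb, after 69.4 ± 0.874 against 9.13 ± 0.584 in PC9.

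The KDM5 enzymes take methyl groups off trimethylated H3K4. KDM5A measured 85.9, 73.9 and 81.6 CPM in PC9 and 78.2, 75.2 and 77.1 CPM in PS. The PS values lie inside the PC9 range, and the log2 fold change was -0.07 with a 95% interval of -0.17 to 0.04 (adjusted p = 0.295). With the length trend removed KDM5A was called lower, at -0.30 (adjusted p = 0.000553). KDM5B had a log2 fold change of 0.0050 with an interval of -0.08 to 0.09. KDM5C was called higher, from 164 ± 7.83 to 185 ± 2.57 CPM (0.17, adjusted p = 0.00341), and this call was lost with the length trend removed.

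**Figure D3:**
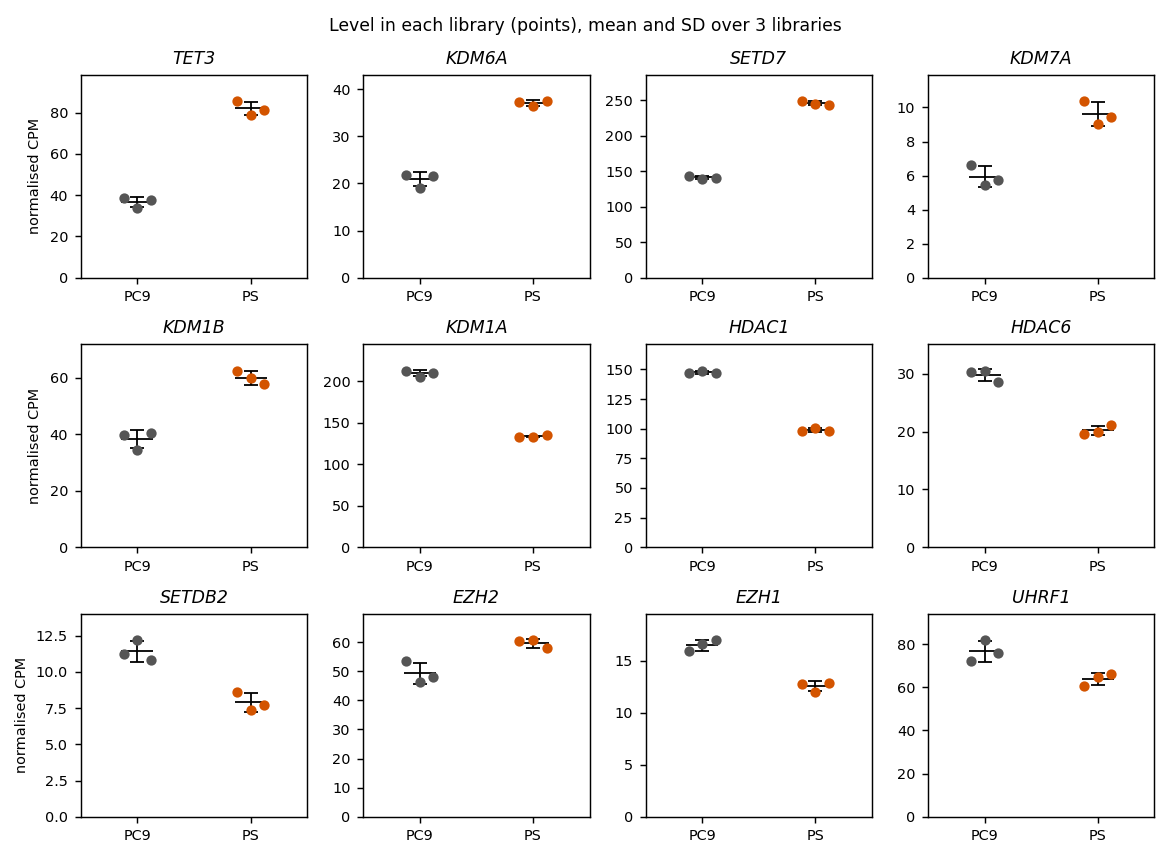
Normalised CPM in each library (points) for 12 members, with the mean and SD over 3 libraries of PC9 and of PS. In every panel the PC9 and PS points are apart, from TET3 at 36.7 and 82.0 CPM to EZH2 at 49.3 and 59.7 CPM.

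Of the 10 tested demethylases of H3K9 and H3K36, 4 were higher, 2 lower and 4 not called. The 60% called is close to the 56.8% of all tested genes. KDM7A, which demethylates H3K9 and H3K27, was low in all libraries but rose clearly. It measured 6.63, 5.44 and 5.73 CPM in PC9 and 10.4, 9.02 and 9.42 CPM in PS (log2 fold change 0.69, SE 0.0983, adjusted p = 8.87e-05). KDM2A, which demethylates H3K36 and binds unmethylated CG, was one of the more abundant members and rose from 179 ± 6.59 to 230.2 ± 2.58 CPM (0.37, adjusted p = 7.67e-06). KDM4B rose by 0.37 and KDM3A by 0.22 on the log2 scale. The KDM3A call was lost with the length trend removed, with library size alone, and without PC9 replicate 3 or PS replicate 1.

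KDM4D was the largest fall in this group. It measured 2.88, 2.61 and 2.67 CPM in PC9 and 2.09, 1.72 and 1.84 CPM in PS (log2 fold change -0.53, SE 0.141, adjusted p = 0.00607). KDM4D, KDM4E and KDM4F are close copies of one another, and Kallisto gave KDM4E and KDM4F a count of 0 in every library. Whether reads were divided correctly between the 3 genes was not tested. Without PC9 replicate 1, PC9 replicate 3, PS replicate 2 or PS replicate 3 the KDM4D call was lost. KDM3B fell slightly (-0.15). KDM2B, KDM4A, KDM4C and KDM8 were not called, at -0.12, 0.10, -0.13 and 0.33.

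The demethylases of H3K27 differed from each other. KDM6A, also known as UTX, is a subunit of the KMT2C and KMT2D complexes. It measured 21.8, 19.1 and 21.7 CPM in PC9 and 37.3, 36.4 and 37.5 CPM in PS. The fold change was 1.78, or 0.83 on the log2 scale (SE 0.0580, adjusted p = 3.45e-07), and 0.72 with the length trend removed. KDM6B measured 67.3, 74.3 and 72.8 CPM in PC9 and 72.1, 77.2 and 79.0 CPM in PS, with overlapping groups and a log2 fold change of 0.09 (95% interval -0.01 to 0.19, adjusted p = 0.136).

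Of the 11 HDAC genes, 8 were called lower in PS, or 72.7%, against 28.1% of all tested genes called lower, and 1 was higher. The median log2 fold change was -0.35. Under the other scalings 7 to 9 were lower and 1 higher. With the length trend removed 8 were lower and 1 higher, but HDAC3 was no longer called and HDAC4 was called lower. Members of a family are not replicates of the condition, and every one of these changes was below 1.5-fold.

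Class I HDACs are the nuclear enzymes of the SIN3, NuRD, CoREST and NCOR corepressor complexes. HDAC1, on chromosome 1, 32292083 to 32333635, measured 147, 149 and 147 CPM in PC9 and 97.7, 101 and 98.2 CPM in PS. The libraries of a group agree closely and the groups are far apart. Its log2 fold change was -0.58 (SE 0.0351, adjusted p = 1.11e-07), a 1.49-fold fall. HDAC2, its near relative in the same complexes, was not called at a log2 fold change of -0.09 (95% interval -0.16 to -0.02, adjusted p = 0.0501), although its groups did not overlap. Per kb, HDAC2 was the more abundant of these in both states, at 107 ± 2.65 and 100.2 ± 1.88 CPM per kb in PC9 and PS, against 70.0 ± 0.264 and 47.0 ± 0.614 for HDAC1. HDAC3, the enzyme of the NCOR complexes, fell from 80.8 ± 2.52 to 70.1 ± 0.376 CPM (-0.21), and this call was lost with the length trend removed. HDAC8 was lower by more, at 34.2 ± 0.0665 CPM in PC9 and 25.7 ± 0.350 CPM in PS (-0.41, adjusted p = 1.06e-05).

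Class II and IV HDACs act in the nucleus and in the cytoplasm. HDAC6, which deacetylates tubulin, had the largest fall of this group. It measured 30.3, 30.6 and 28.6 CPM in PC9 and 19.7, 20 and 21.1 CPM in PS (log2 fold change -0.56, SE 0.0537, adjusted p = 4.48e-06). HDAC9 was the HDAC that rose. It measured 24.4, 21.2 and 23.9 CPM in PC9 and 29.8, 29.2 and 31.6 CPM in PS (0.39, SE 0.0630, adjusted p = 0.000259). HDAC11, the class IV enzyme, fell by 0.48 on the log2 scale, HDAC10, a polyamine deacetylase, by 0.44, and HDAC7 by 0.35. HDAC5 was lower by 0.26 at an adjusted p of 0.0097, next to the limit, and lost its call in 10 of 19 alternative settings, including those without PC9 replicate 2, PC9 replicate 3 or any one PS replicate. HDAC4 was at 50.6 ± 2.53 and 50.1 ± 0.352 CPM and was not called (-0.02, 95% interval -0.11 to 0.08), but it was called lower with the length trend removed (-0.20, adjusted p = 0.003).

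**Figure D4:**
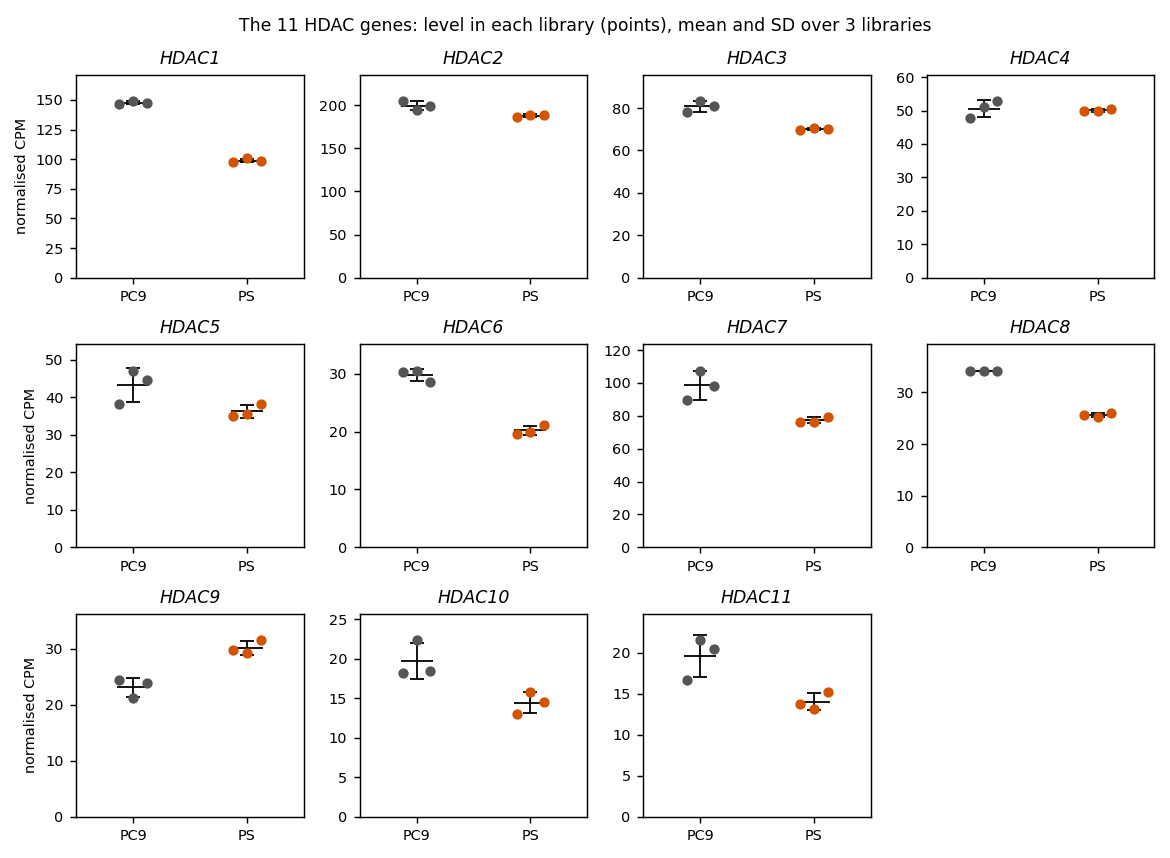
Normalised CPM in each library (points) for the 11 HDAC genes, with the mean and SD over 3 libraries of PC9 and of PS. HDAC1 goes from 148 to 98.8 CPM and HDAC6 from 29.8 to 20.2 CPM, HDAC9 goes up from 23.1 to 30.2 CPM, and HDAC2 and HDAC4 lie nearly level.

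Sirtuins were more mixed, with 1 of 7 higher, 2 lower and 4 not called. The 42.9% called compares with 56.8% of all tested genes. SIRT1, the nuclear enzyme that deacetylates p53 and histones, measured 29.8, 29.3 and 28.2 CPM in PC9 and 34.4, 35.7 and 38.5 CPM in PS. All PS libraries were above the PC9 libraries, and the log2 fold change was 0.31 (SE 0.0542, adjusted p = 0.000375). SIRT2, mainly a cytoplasmic enzyme, measured 29.9, 34.0 and 33.1 CPM in PC9 and 20.9, 24.5 and 25.3 CPM in PS (-0.45, SE 0.0761, adjusted p = 0.000309). SIRT3, the main deacetylase of mitochondria, fell from 22.5 ± 1.02 to 17.0 ± 0.0707 CPM (-0.41, adjusted p = 6.63e-05). SIRT4, another mitochondrial sirtuin, had the most negative log2 fold change of the set, -0.95, but was expressed at 1.07 ± 0.430 and 0.556 ± 0.146 CPM and was not called (adjusted p = 0.0285). SIRT5, SIRT6 and SIRT7 were not called, at 0.14, 0.0044 and 0.05.

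DNA methylation is set by DNMT3A and DNMT3B and copied at replication by DNMT1, which UHRF1 brings to hemimethylated sites. DNMT1 measured 110.4, 109.9 and 105 CPM in PC9 and 112, 124 and 116 CPM in PS. These groups do not overlap but are close, and the log2 fold change of 0.12 (95% interval 0.03 to 0.21) was not called (adjusted p = 0.0404). UHRF1, on chromosome 19, 4903080 to 4962154, measured 72.1, 81.9 and 75.8 CPM in PC9 and 60.8, 64.8 and 66.3 CPM in PS, a log2 fold change of -0.26 (SE 0.0544, adjusted p = 0.00144). DNMT3B measured 10.9, 11.3 and 12.1 CPM in PC9 and 15.3, 14.4 and 15.4 CPM in PS (0.40, SE 0.0676, adjusted p = 0.000349), while DNMT3A fell from 34.7 ± 2.19 to 29.9 ± 1.14 CPM (-0.21, adjusted p = 0.00678). The replication licensing gene MCM7 among the proliferation markers was lower in PS too (-0.52) and MKI67 was higher (0.71), and the part of the cell cycle in the level of UHRF1 was not tested.

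TET3 showed the largest rise of all members. It lies on chromosome 2, 73984910 to 74108176, and measured 38.4, 33.9 and 37.6 CPM in PC9 and 85.6, 79.0 and 81.5 CPM in PS. Each PS library holds more than 2 times the level of every PC9 library, and the fold change was 2.24, or 1.16 on the log2 scale (SE 0.0553, adjusted p = 1.78e-08). Its transcript is long, at 11.7 kb, and with the length trend removed the log2 fold change was 0.89. TET1 and TET2, of 9.61 and 9.49 kb, were not called. TET2 was at 13.8 ± 1.29 and 14.0 ± 0.380 CPM (0.02), and TET1 at 4.41 ± 0.290 and 3.69 ± 0.0930 CPM (-0.26, adjusted p = 0.0504). With the length trend removed TET1 was called lower, at -0.48 (adjusted p = 0.00212).

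The partners, other enzymes and cofactor pathways of these proteins were counted from lists written from general knowledge. Of 111 tested genes 41 were called higher (36.9%) and 24 lower (21.6%), against 28.7% and 28.1% of all tested genes. Called either way were 58.6%, close to the 56.8% of all tested genes. The counts of each list below are to be read beside these same background shares. Among the other subunits of COMPASS and MLL complexes, 6 of 12 were higher and 1 was lower. HCFC1 rose from 152 ± 5.18 to 227 ± 4.23 CPM (0.57, adjusted p = 2.3e-07), and DPY30 fell from 53.9 ± 1.03 to 45.3 ± 0.289 CPM (-0.25, adjusted p = 0.000222). Of 8 accessory subunits of PRC2, 2 were higher and 3 lower. PHF19, which brings PRC2 to chromatin marked with H3K36 methylation, rose by 0.65 (adjusted p = 1.62e-06), and RBBP4, a histone chaperone also found in NuRD and SIN3 complexes, fell by 0.61 on the log2 scale (adjusted p = 1.57e-07).

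Of 25 tested subunits that hold HDACs in corepressor complexes, 8 were higher and 4 lower. TBL1X, a subunit of the NCOR complexes, rose from 29.8 ± 1.00 to 49.3 ± 0.928 CPM (0.73, adjusted p = 1.51e-07), and MTA3, a subunit of NuRD, fell from 87.0 ± 4.86 to 59.2 ± 2.29 CPM (-0.56, adjusted p = 2.85e-06). Acetyltransferases, which oppose the deacetylases, were higher for 6 of 13 genes and lower for 1. CREBBP rose from 134 ± 5.38 to 236 ± 3.81 CPM (0.82, adjusted p = 1.99e-08), and KAT8, the H4K16 acetyltransferase, fell by 0.34 on the log2 scale (adjusted p = 0.000102).

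Other histone methyltransferases were higher for 8 of 19 genes and lower for 1. SMYD2 rose from 33.7 ± 1.02 to 75.1 ± 3.14 CPM (1.16, adjusted p = 5.57e-09), a rise of the size seen for TET3, and the arginine methyltransferase PRMT7 fell by 0.33 on the log2 scale (adjusted p = 0.000773). Of 7 other JmjC proteins 3 were higher and 3 lower. Those with the smallest p-values were HR among the rises (1.32, adjusted p = 2.11e-06), which was low at 2.30 ± 0.174 CPM in PC9, and PHF2 among the falls (-0.27, adjusted p = 0.000111). The list of readers of methylated DNA and H3K9, which also held TDG, an enzyme rather than a reader, counted 4 higher and 2 lower of 9. TDG, the glycosylase that excises the bases that TET enzymes oxidise, rose from 33.0 ± 1.94 to 58.1 ± 1.59 CPM (0.82, adjusted p = 1.61e-07), and MBD4 fell by 0.40 on the log2 scale (adjusted p = 1.06e-05).

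Genes that supply S-adenosylmethionine, NAD and 2-oxoglutarate were lower for 9 of 18 and higher for 4. IDH1, which makes 2-oxoglutarate in the cytoplasm, fell from 268 ± 2.38 to 149 ± 2.95 CPM (-0.84, adjusted p = 5.21e-09). IDH3A, of the mitochondrial citric acid cycle, rose by 0.32 (adjusted p = 0.000167).

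**Figure D5:**
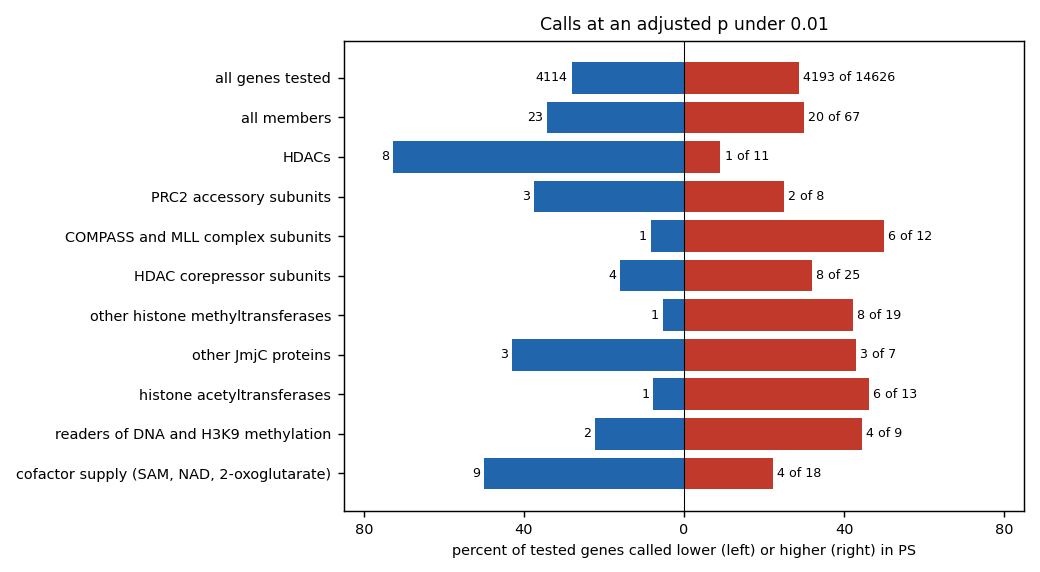
Percent of tested genes called lower (bars to the left) or higher (bars to the right) in PS, for all tested genes, the members, the HDACs and the related lists, with the numbers of genes beside the bars. The HDAC bar is the longest to the left, at 8 of 11, and the COMPASS bar the longest to the right, at 6 of 12.

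At the level of transcripts, 329 of the members' 958 matched transcripts were tested, of which 5 were called higher and 6 lower, while 7.80% of all 54499 tested transcripts were called. The rises were TET3-202, SETD7-201, KDM6A-201, KDM1B-205 and KDM2A-212, and the falls HDAC1-201, KDM1A-201, KDM1A-202, HDAC7-201, EZH1-202 and KMT2E-202. Without PS replicate 2 or PS replicate 3 there were 5 calls, without PC9 replicate 3 or PS replicate 1 there were 6, and without PC9 replicate 1 there were 7. In TET3, SETD7 and HDAC1 a single transcript held nearly all of the gene's counts. TET3-202 (ENST00000409262.7) held 99.5% of the gene's counts in both groups, SETD7-201 96.6% and 97.7%, and HDAC1-201 98.6% and 97.8%. KDM1A-201 and KDM1A-202 fell together and kept their shares of the gene, at 69.3 ± 1.98% and 67.8 ± 1.88% for KDM1A-201. In HDAC7, HDAC7-201 fell by 0.90 on the log2 scale (edgeR adjusted p = 0.00503) while HDAC7-202 was not called, at 0.09.

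Transcript usage, the share of each transcript within its gene, was tested with edgeR's diffSpliceDGE in 61 members. It was called for 1, KMT2C, against 1.93% of all genes tested, and 3 members had an unadjusted p under 0.05. Shares are of the gene's counts on matched transcripts. KMT2C-201, the full-length coding transcript, went from 45.9 ± 6.04% to 17.9 ± 3.26% of these counts. KMT2C-207, a retained-intron transcript, went from 31.2 ± 2.31% to 50.3 ± 3.56% of them (diffSpliceDGE adjusted p = 0.00736). However, only 50.8% of the KMT2C gene count was on transcripts matched to the annotation, and the rest of the count is left out of these shares. The call was absent without PC9 replicate 1, PC9 replicate 3 or any one PS replicate, and 0 of 58 members with at least 80% of their counts on matched transcripts were called. The next members by p-value were HDAC8 and HDAC4. HDAC8-207 went from 44 ± 5.54% to 31.0 ± 4.67% of the gene and HDAC8-226 from 11.5 ± 5.62% to 19.7 ± 2.06% (adjusted p = 0.026). HDAC4-215 went from 70.5 ± 3.63% to 52.1 ± 7.17% and HDAC4-201 from 24.1 ± 4.99% to 41.1 ± 7.39% (adjusted p = 0.23), in a gene whose total count was not called. EED, KDM2B and HDAC7 followed with adjusted p-values of 0.95 and above. EED-201 went from 79.2 ± 4.92% to 72.2 ± 1.84% and EED-207 from 3.43 ± 0.813% to 5.89 ± 1.22%. KDM2B-201 went from 16.3 ± 6.11% to 8.36 ± 0.837% and KDM2B-214 from 24.4 ± 8.84% to 36.4 ± 2.85%. HDAC7-201 went from 50.7 ± 3.26% to 35.4 ± 1.93% and HDAC7-202 from 41.7 ± 2.50% to 57.3 ± 2.98%. The HDAC7 shares do not overlap between the groups, but no change in usage was called.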

How the data were processed

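RNA was measured in 3 PC9 and 3 PS libraries, grouped by their labels. Per the labels and the study's methods, the authors enriched poly-A RNA, trimmed adaptors with bases2fastq, applied FASTP and pseudoaligned reads with Kallisto 0.46.1 to Ensembl release 96 transcripts of GRCh38.p13. They deposited estimated counts, whole numbers without normalization, per gene symbol and per transcript. Use of strand is not given in the sources used here, so sense and antisense reads of overlapping genes may be mixed. Sleuth results and libraries of other laboratories were not analysed here.

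The gene-level test used edgeR 4.0.16 in R 4.3.3 (filterByExpr, TMM, glmQLFit, glmQLFTest, no block, Benjamini-Hochberg limit 0.01). An SE is the log2 fold change divided by the square root of F. Each 95% interval takes this SE with the multiplier of a normal distribution. With so few libraries such intervals are too narrow. PS libraries are labelled as separate replicates, but they were pooled from 9 cultures, while the 3 PC9 libraries came from separate cultures. A pool averages over its cultures, so the SDs of the groups are not of the same kind. The p-values measure the spread between these libraries, which may be technical. Total counts were 29.5 to 34.9 M per library. An SD over 3 libraries can by chance fall below counting error, as for some members here. The same test was applied to transcripts, and usage was tested with diffSpliceDGE and its Simes p. Of 188753 transcripts, 167067 were matched to GENCODE 44 of GRCh38, with 95.8% of the counts, and coordinates are from that annotation. CPM per kb divides each transcript's CPM by its length, and is printed only for genes with at least 80% of their counts on matched transcripts. EHMT2 (3.36%), SIRT2 (50.0%), KMT2C (50.8%), SETDB2 (64.4%) and KDM6A (79.2%) were below this, so their lengths are less certain, that of EHMT2 most of all.

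Alternatives were DESeq2 1.42.0, limma 3.58.1 (voom), other scalings and filters, each library left out, a replicate block, counts summed over transcripts, other limits, and removal of a length or GC trend through edgeR's offset, estimated without the members. Length and GC content were known for 93.4% of tested genes. The trend used the arithmetic mean length over a gene's transcripts, weighted by counts. The lengths and length classes printed here use the harmonic mean, so a gene's removed trend need not follow its printed length. The gene, transcript and usage tests and the removal of a length trend were tried on simulated data with log2 changes of 1. The simulated spread was the same for every gene and transcript, which real counts need not follow. The other alternatives were not simulated. The members and lists were chosen with earlier results of these data known, and trend removal after seeing the data. Named genes were, in each role group, the called member with the largest rise and that with the largest fall, and EZH1, EZH2, DNMT1, UHRF1, KDM5A, KDM6B, HDAC1 and SIRT1, in each related list the called gene with the smallest p in each direction, and for transcripts the 6 members with the smallest usage p. Other members are given by means, fold changes and counts, and other genes and transcripts were named after their values were seen. Promoters are from RefSeq (GRCh38.p14). Figures were drawn with matplotlib 3.10.9.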

Additional observations from a re-analysis of the deposited data

How the results depend on the processing

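Under the 19 alternatives the calls of TET3, KDM6A, SETD7, KDM7A, KDM1B and KDM1A were kept in each, and no called member changed sign except SETD1B with the length trend removed, at -0.0074. The number of genes called was 8307 and ranged from 7054 to 8407 when 1 library was left out, and 3501 with a fold change above 1.5, where 5 members were higher, 1 lower and 15 related genes called. Members called higher numbered 20, 13 to 23 with 1 library left out, and 13 with the length trend removed. Library size alone called 3604 genes higher and 4652 lower, and upper quartile 3726 and 4562, against 4193 and 4114. The calls lost most often were those of HDAC5 (10 settings), KMT5A (9), and KMT2B, KMT5C and SUZ12 (8 each). KMT2A, not called, lay between 0.20 and 0.39 with 1 library left out, lowest without PC9 replicate 2.

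Members that were not called and had fold changes near 0 changed sign in some settings. With library size alone KDM5B was at -0.048, SETD4 at -0.031, SIRT6 at -0.049, SIRT7 at -0.0012 and TET2 at -0.031, and with upper quartile KDM5B was at -0.038, SETD4 at -0.021, SIRT6 at -0.038 and TET2 at -0.021. With 1 library left out SIRT6 lay between -0.052 and 0.090, EHMT2 between -0.12 and 0.0094, KDM5B between -0.024 and 0.034, TET2 between -0.027 and 0.10, HDAC4 between -0.054 and 0.016 and SETD4 between -0.060 and 0.11. With the length trend removed EHMT2 was at 0.027, KDM5B at -0.12, KDM6B at -0.051, KMT2A at -0.0044 and TET2 at -0.20. The length of EHMT2 rests on the 3.36% of its counts that were on matched transcripts, so its value there is uncertain. With gene counts summed from transcripts KMT2C was at -0.22. The cause was not tested.

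Member transcripts called numbered 11, 31 at an adjusted p under 0.05, and 5 to 8 with 1 library left out. Members with a called change in usage numbered 1, 0 without a filter, 2 at an adjusted p under 0.05, and 0 to 2 with 1 library left out. The labels give both groups the same replicate numbers and do not say whether same-numbered libraries were paired. Deviations of same-numbered libraries from their group means had correlations of 0.124, 0.0236 and 0.0215. Those of differently numbered libraries lay between -0.117 and 0.0971. With the replicate block 8671 genes, 4 member transcripts and 0 usage changes were called, and all 43 member calls were kept. Depth limits the statements on SIRT4, KDM8, SETD9 and KDM4D, which were under 3 CPM in every library.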
